A study of Arabidopsis thaliana with 26 samples.

Results

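The comparison asks how the seedling transcriptome differs between brassinosteroid precursors that carry a hydroxyl group at carbon 23 of the side chain and those that do not. Teasterone was set against cathasterone in the 6-oxo branch of the pathway, and 6-deoxoteasterone against 6-deoxocathasterone in the 6-deoxo branch. Each of these 4 compounds was given at 1 µM for 3 h and measured on 2 Affymetrix ATH1 arrays, so the comparison rests on 8 of the 26 arrays of the study. The 8 arrays were chosen by their labelled treatment alone. ATH1 is a one-colour oligonucleotide array on which a set of probes reports on 1 transcript or on a few close ones.

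All plants were whole 7-day-old Arabidopsis thaliana seedlings, labelled de-etiolated, in the Col background and from seed stock N6159. None of the sources used here states the genotype of that stock, and wild type is not assumed. In all, 12 steroids and a mock treatment were applied for 3 h. Beside the 4 compounds compared, brassinolide (10 nM), castasterone (100 nM), campestanol (10 µM) and mock are used below as points of orientation. Each group had 1 array with the letter A and 1 with the letter B. The labels do not say whether A and B were separate cultures, so p-values reflect the array-to-array spread only, and that spread may be technical.

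Brassinosteroids are steroid hormones of plants that promote cell elongation. They are made from campesterol through a series of hydroxylations and oxidations, along parallel branches that differ in whether the ketone at carbon 6 is already present. Cytochrome P450 enzymes CYP90C1 and CYP90D1 carry out the C-23 hydroxylation, and brassinolide is the most active end product. Brassinolide binds the receptor kinase BRI1 at the cell surface, and the transcription factors BZR1 and BES1 then alter the expression of genes for wall loosening and growth, while genes of hormone synthesis are repressed.

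Median intensities of the 8 arrays lay between 34.2 and 39.3, and none of them duplicated another. Across probe sets, the log2 values of arrays of different compounds with the same letter correlated at 0.964 to 0.984, and those of the same compound with different letters at 0.963 to 0.973, so the letter was at least as visible in the arrays as the compound. The label of whole plants was checked against marker genes. The 8 leaf photosynthesis markers measured had mean intensities over all arrays of 346 or more, and the root gene PYK10, which encodes a beta-glucosidase, had 1206 to 2054 on the 8 arrays, so both shoot and root were represented.

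Across both branches, 9 of 17606 probe sets differed between the C-23 hydroxylated compounds and their precursors (0.0511%), 5 higher (0.0284%) and 4 lower (0.0227%), in limma with the array letter as a block and a Benjamini-Hochberg adjusted p under 0.05. Of the 9, 4 belonged to the 511 probe sets induced by both brassinolide and castasterone (2.9% of all tested) and 4 to the 174 repressed by both (0.988%), and each moved in the same direction here. The brassinolide, castasterone and mock arrays enter none of the C-23 differences, but they share the fit and its estimate of the spread. At an unadjusted p under 0.05 there were 1197 probe sets (6.80%). The count of 9 was small and rested on single arrays: it became 2 without teasterone array B, 3 without cathasterone array A, 2 without 6-deoxocathasterone array A and 1 without 6-deoxocathasterone array B. It was 0 when only the 8 arrays entered the fit, where 1015 probe sets had an unadjusted p under 0.05. It was 1 without the letter as a block.

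The first of the named genes to rise was CSLC04, a glucan synthase that makes the backbone of xyloglucan, the main hemicellulose of the growing primary wall. Its intensity was 385 and 579 with teasterone and 339 and 476 with 6-deoxoteasterone, against 253 and 314 with cathasterone and 272 and 306 with 6-deoxocathasterone. Every array with a C-23 hydroxylated compound lay above every array with a precursor. Brassinolide arrays reached 621 and 633 and mock arrays 212 and 233. The difference averaged over the branches was 0.60 ± 0.11 (SE; 4 arrays against 4; adjusted p = 0.0384) on the log2(value + 5) scale on which all differences are given. It was 0.74 in the 6-oxo and 0.47 in the 6-deoxo branch. The call of CSLC04 was lost on leaving out any one of 6 of the 8 arrays.

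The other named gene to rise was AT3G06150. It gave 128 and 145 with teasterone and 146 and 108 with 6-deoxoteasterone, against 112 and 91.2 with cathasterone and 70.3 and 71.5 with 6-deoxocathasterone. The arrays did not overlap within either branch, although 1 array with 6-deoxoteasterone was below 1 with cathasterone. The average difference was 0.60 ± 0.11 (SE; adjusted p = 0.0384). Its call was also lost without any one of 6 of the 8 arrays.

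The other 7 probe sets that passed named no gene or several genes in the annotation used. The largest fall was that of probe set 256598_at, which had 41.7 and 52.8 with teasterone and 59.4 and 44.9 with 6-deoxoteasterone, against 139 and 163 with cathasterone and 85.2 and 237 with 6-deoxocathasterone. It fell by 1.48 ± 0.19 (SE; adjusted p = 0.00196), with no overlap between the hydroxylated compounds and the precursors. On brassinolide arrays it read 16.6 and 19.3, and on mock arrays 473 and 530. Its call was kept on leaving out each of the 8 arrays in turn, and it was the call that remained without the letter as a block; in the fit of the 8 arrays alone no call was made.

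Probe set 245325_at fell by 1.07 ± 0.18 (SE; adjusted p = 0.0371). Its arrays overlapped in the 6-oxo branch, at 566 and 233 with teasterone against 583 and 541 with cathasterone. They did not in the 6-deoxo branch, at 427 and 261 with 6-deoxoteasterone against 1252 and 756 with 6-deoxocathasterone. Among the rises, probe set 253103_at had 95.9 and 70.7 with teasterone and 54.1 and 47.8 with 6-deoxoteasterone, against 45.3 and 32.7 with cathasterone and 44.7 and 28.5 with 6-deoxocathasterone. Every hydroxylated array was above every precursor array, and the rise was 0.73 ± 0.13 (SE; adjusted p = 0.0384).

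A single probe set that passed was not among those that brassinolide and castasterone both changed. Probe set 262934_s_at, which reports on more than 1 gene, read 61.6 and 60.9 with teasterone and 56.7 and 58.2 with 6-deoxoteasterone, against 33.4 and 37.5 with cathasterone and 34.9 and 36.2 with 6-deoxocathasterone. Its arrays were tightly grouped by hydroxylation in both branches, with a rise of 0.67 ± 0.12 (SE; adjusted p = 0.0384). It read 55.1 and 54.9 with brassinolide and 40.2 and 47.8 with mock, a difference of 0.30. Its call was lost without any one of the 8 arrays.

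**Figure D1:**
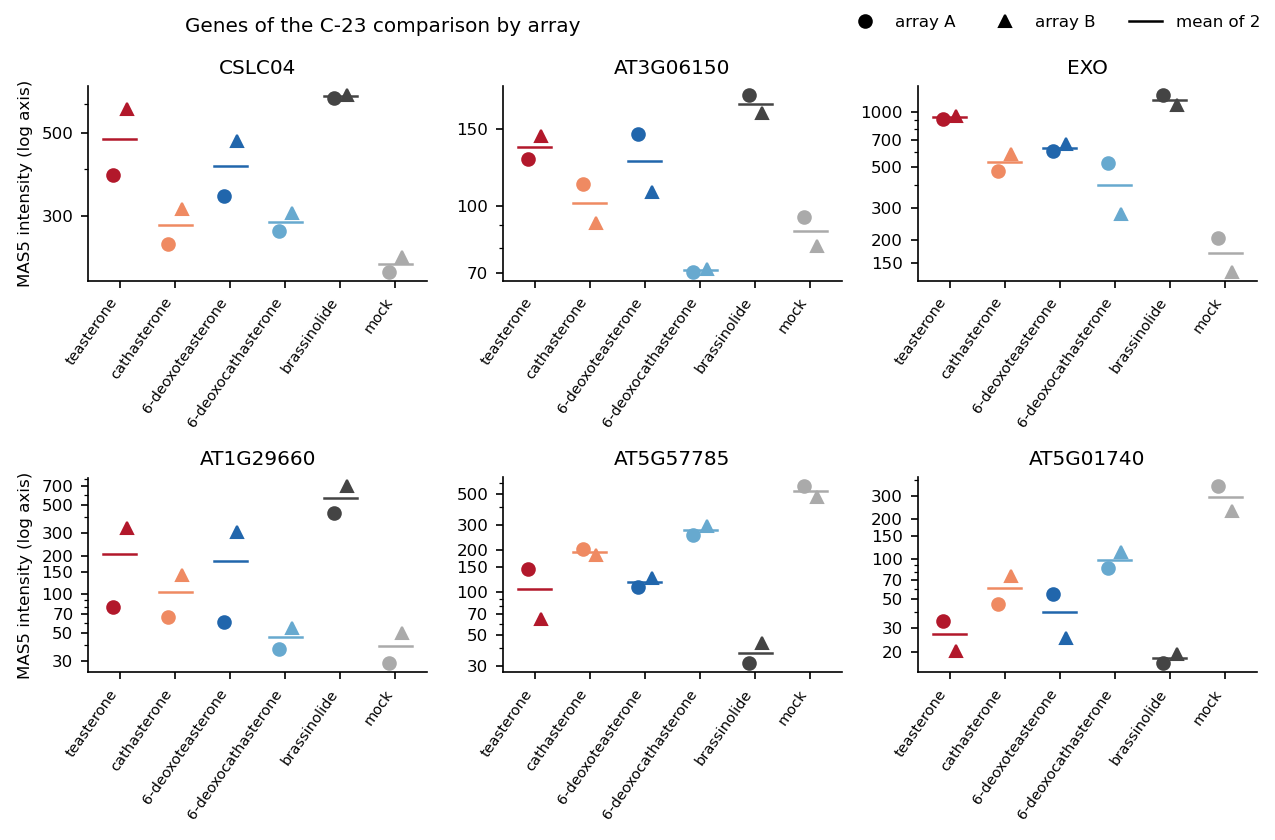
Intensity (log axis) of 6 genes on each array (circle, letter A; triangle, letter B; bar, mean of 2) for teasterone, cathasterone, 6-deoxoteasterone, 6-deoxocathasterone, brassinolide and mock. CSLC04 and AT3G06150 passed the test of the average, the other 4 are shown as values, and AT1G29660 shows the gap between letters, with 79.6 and 332 for teasterone.

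Several genes with the next lowest p-values have known ties to brassinosteroids or the cell wall, and none of them passed the adjusted threshold. EXO, the EXORDIUM gene that is induced by brassinosteroids and promotes leaf growth, had 914 and 950 with teasterone and 610 and 662 with 6-deoxoteasterone, against 474 and 592 with cathasterone and 525 and 278 with 6-deoxocathasterone. No array overlapped between hydroxylated compounds and precursors, and EXO read 1233 and 1087 with brassinolide and 206 and 135 with mock. Its difference was 0.77 ± 0.16 (SE; adjusted p = 0.0811).

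AT1G29660, a GDSL-type lipase gene, had 79.6 and 332 with teasterone and 60.4 and 305 with 6-deoxoteasterone, against 66.2 and 142 with cathasterone and 37.5 and 54.9 with 6-deoxocathasterone. The B arrays were higher than the A arrays in each of these groups, and within each letter the hydroxylated compound was higher. The average difference was 1.11 ± 0.22 (SE; adjusted p = 0.067), in the 6-oxo branch 0.73 and in the 6-deoxo branch 1.496.

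Of the other named genes of lowest p with a positive difference, AT3G49220, a pectin methylesterase gene, had 723 and 771 with teasterone and 588 and 683 with 6-deoxoteasterone, against 507 and 582 with cathasterone and 434 and 440 with 6-deoxocathasterone. Its arrays were separated by hydroxylation, and its difference was 0.49 (adjusted p = 0.103). AT2G35880, AR781, AT5G25170 and AT3G56880 differed by 0.52, 0.53, 0.58 and 0.46, with adjusted p of 0.0966, 0.0966, 0.101 and 0.103. AT1G62520 differed by 1.25 (adjusted p = 0.103) at low intensities of 27.2 and 28.6 with teasterone and 26.7 and 14.8 with 6-deoxoteasterone, against 4.41 and 14.3 with cathasterone and 4.86 and 6.85 with 6-deoxocathasterone. Of these 8 genes, 7 were in the set induced by brassinolide and castasterone, which holds 2.9% of all tested. That all 8 were higher in each of the 4 pairs of arrays sharing a branch and a letter follows largely from their choice by p.

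On the negative side no named gene passed for the average. AT5G57785 came closest, with 146 and 64.4 with teasterone and 108 and 127 with 6-deoxoteasterone, against 201 and 185 with cathasterone and 257 and 296 with 6-deoxocathasterone. All hydroxylated arrays were below all precursor arrays, which follows largely from the choice of this gene by p. Brassinolide arrays were lower still, at 31.3 and 43.4, against 564 and 475 for mock. The difference was -1.07 ± 0.20 (SE; adjusted p = 0.0504), and it passed in 4 of 18 alternative settings, with adjusted p between 0.00468 and 0.330.

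AT5G01740 had 34.3 and 20.4 with teasterone and 54.6 and 25.3 with 6-deoxoteasterone, against 46.0 and 75.1 with cathasterone and 85.4 and 113 with 6-deoxocathasterone. The groups were separate within each branch, and the difference was -1.15 ± 0.22 (SE; adjusted p = 0.0592). AT5G12050 was also separate within each branch, at 39.9 and 56.7 with teasterone against 80.9 and 58.3 with cathasterone, and at 44.2 and 40.2 with 6-deoxoteasterone against 114 and 77.4 with 6-deoxocathasterone. Its difference was -0.78 (adjusted p = 0.0592).

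The remaining named genes of lowest p with a negative difference ranged from -0.75 for AT5G02540 to -0.42 for BRH1, with adjusted p from 0.0966 to 0.204. They included XI-I, a class XI myosin gene (-0.45), AT1G66890 (-0.63), AT1G21050 (-0.55), AT3G13980 (-0.46) and AT5G58100 (-0.62). Of these 10 genes, 8 were in the set repressed by brassinolide and castasterone, which holds 0.988% of all tested. AT5G58100 and XI-I were not. That 9 of the 10 were lower in each of the 4 pairs of arrays follows largely from their choice by p.

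Taken by branch, the 2 pairs of compounds gave unlike counts. Between teasterone and cathasterone 0 probe sets passed in limma, with 821 (4.66%) at an unadjusted p under 0.05. That share is no more than the threshold itself would let through if nothing differed. Between 6-deoxoteasterone and 6-deoxocathasterone 3 passed (0.017%), all of them lower, with 1932 (10.97%) at an unadjusted p under 0.05. Adjusting over both branches together left 0 and 1. The difference between the branches was tested directly, and 0 probe sets passed, with 1502 (8.53%) at an unadjusted p under 0.05. The counts therefore do not show that the branches differ.

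The named gene among the 3 was BRH1, a RING-H2 zinc finger gene named for its response to brassinosteroids. It had 382 and 309 with 6-deoxoteasterone, against 750 and 592 with 6-deoxocathasterone, and these arrays did not overlap. BRH1 fell by 0.95 ± 0.13 (SE; 2 arrays against 2; adjusted p = 0.00742) in the 6-deoxo branch. In the 6-oxo branch it read 546 and 443 with teasterone against 515 and 408 with cathasterone, which overlap, and its difference was 0.10 (95% interval -0.17 to 0.37). The difference between the branches was 1.05 (95% interval 0.66 to 1.43) with an adjusted p of 0.138. Brassinolide arrays had 401 and 396 for BRH1 and mock arrays 701 and 492. The 6-deoxo call of BRH1 was lost without the letter as a block (adjusted p = 0.748) and without either 6-deoxocathasterone array or 6-deoxoteasterone array A (adjusted p from 0.0586 to 0.125).

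To describe how genes that respond to the active hormones behaved, the probe sets called in one direction for both brassinolide and castasterone against mock were followed through the C-23 comparison. Brassinolide changed 917 probe sets (5.21%), with 669 higher (3.8%) and 248 lower (1.41%). Castasterone changed 937 (5.32%), with 634 higher (3.6%) and 303 lower (1.72%). Both induced 511 and both repressed 174. The 8 arrays compared enter neither of these differences, but they were part of the fit that gave the spread, the letter term and the filter. Since the brassinolide and castasterone comparisons share the mock arrays, their overlap is used here only to choose probe sets.

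Most of the induced probe sets were higher with the C-23 hydroxylated compounds, and most of the repressed ones were lower. The median difference over the 511 induced probe sets was 0.23, and 468 of them (91.6%) were positive, beside a median of -0.024 and 44.2% positive among all tested. The median over the 174 repressed ones was -0.22, and 152 (87.4%) were negative, beside 55.8% of all tested. Of the induced, 152 (29.7%) were higher in all 4 pairs of arrays, beside 4.28% of all tested, and 62 of the repressed (35.6%) were lower in all 4 pairs, beside 6.26%. Of these 685 probe sets, 8 passed the test individually. In an alternative chosen after seeing the data, the sets were drawn from a fit of the other 18 arrays alone. It gave 530 induced probe sets, 496 of them shared with the 511, with a median of 0.22 and 482 positive (90.9%). It gave 167 repressed ones, 155 of them shared with the 174, with a median of -0.22 and 146 negative (87.4%).

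**Figure D2:**
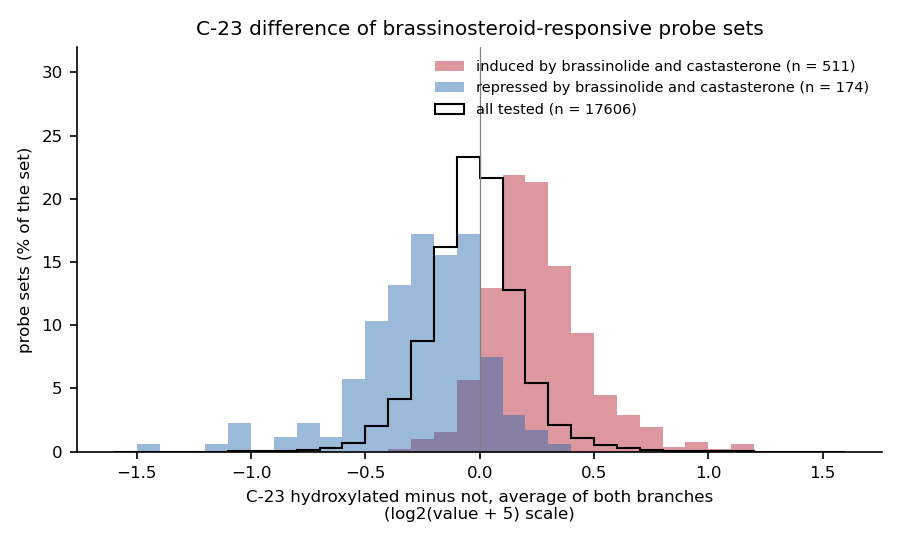
Distribution of the C-23 difference averaged over both branches (log2(value + 5) scale), as percent of each set, for 511 probe sets induced and 174 repressed by brassinolide and castasterone and for all 17606 tested (outline). The medians are 0.23 for the induced, -0.22 for the repressed and -0.024 for all tested probe sets.

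Both branches showed these shifts. In the 6-oxo branch the median was 0.29 among the induced probe sets, of which 472 were positive (92.4%, beside 46.4% of all tested), and -0.20 among the repressed, of which 145 were negative (83.3%, beside 53.6%). In the 6-deoxo branch the median was 0.19 among the induced, with 385 positive (75.3%, beside 44.9%), and -0.25 among the repressed, with 133 negative (76.4%, beside 55.1%). The 2 branches share no array. Across probe sets, which are not independent replicates, their differences correlated weakly within the induced (Pearson 0.21) and the repressed set (0.16) and at -0.012 over all tested. Between the 2 letters of 1 branch the correlations were also low within the induced set, at 0.092 (6-oxo) and 0.10 (6-deoxo). Within the repressed set they were 0.23 and 0.53, and over all tested -0.15 and 0.13. The sign was the same in both branches for 72.0% of the induced and 65.5% of the repressed, beside 47.8% of all tested probe sets.

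The C-23 difference was graded with the size of the brassinolide response. The 46 probe sets that brassinolide induced at least 4-fold had a median C-23 difference of 0.57, and all 46 were positive. The 226 induced from 2-fold to under 4-fold had a median of 0.29, and the 239 induced less than that a median of 0.16. Likewise the 12 repressed at least 4-fold had a median of -0.95, and all 12 were negative. The 58 repressed from 2-fold to under 4-fold had -0.35 and the other 104 had -0.16. Across probe sets, the brassinolide and C-23 differences correlated at 0.63 within the induced and 0.71 within the repressed set, and at 0.29 over all tested. In the 6-oxo branch the values were 0.57, 0.71 and 0.29, and in the 6-deoxo branch 0.43, 0.45 and 0.14. These differences share no array.

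**Figure D3:**
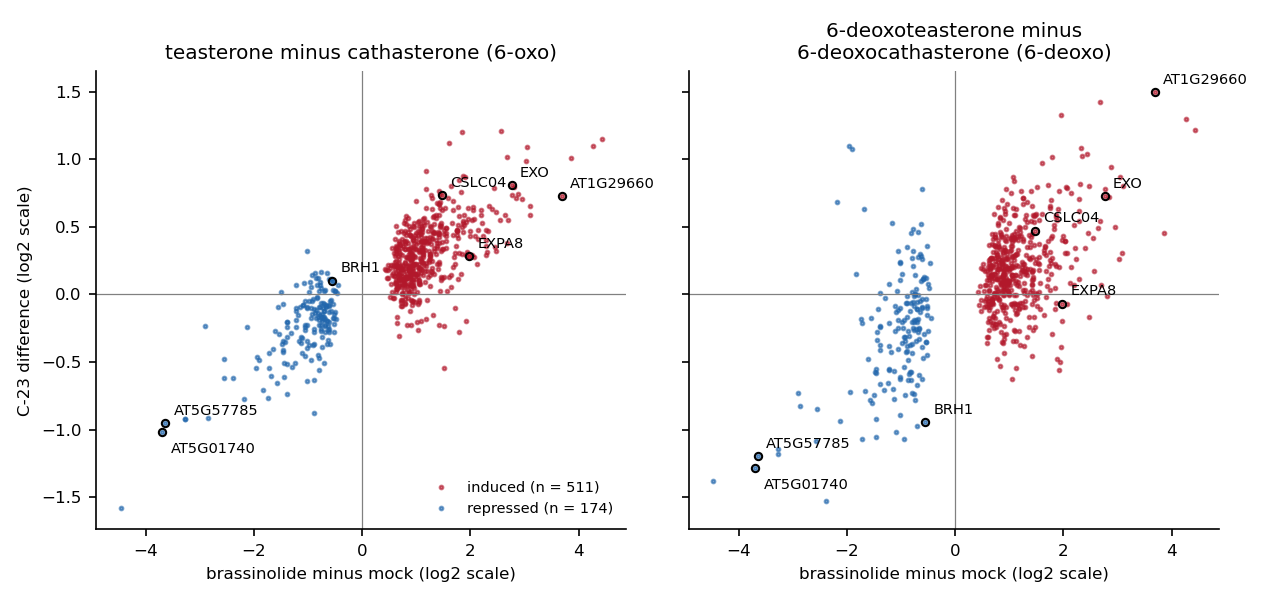
C-23 difference in the 6-oxo branch (left) and the 6-deoxo branch (right) against the brassinolide minus mock difference, both on the log2 scale, for the 511 induced (red) and 174 repressed (blue) probe sets, 1 point each. The outlined points are named genes; BRH1 lies at 0.10 in the 6-oxo and at -0.95 in the 6-deoxo branch.

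The mean level of the response genes was also followed on each array, relative to the mean of the 2 campestanol arrays. For the 511 induced probe sets it was 0.50 and 0.76 with teasterone against 0.30 and 0.34 with cathasterone, and 0.30 and 0.52 with 6-deoxoteasterone against 0.25 and 0.17 with 6-deoxocathasterone. The arrays did not overlap within either branch, but array A of 6-deoxoteasterone lay only just above the array A of its precursor. For the 174 repressed probe sets it was -0.54 and -0.72 with teasterone against -0.39 and -0.39 with cathasterone, and -0.46 and -0.62 with 6-deoxoteasterone against -0.28 and -0.26 with 6-deoxocathasterone, again with no overlap within a branch. Side by side, and at another dose, brassinolide arrays had 1.10 and 1.14 for the induced and -1.05 and -1.09 for the repressed set. Both sets were chosen by their response on these same brassinolide arrays, so the size of these values follows in part from that choice. The arrays of the compounds compared enter neither of the differences used for the choice.

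**Figure D4:**
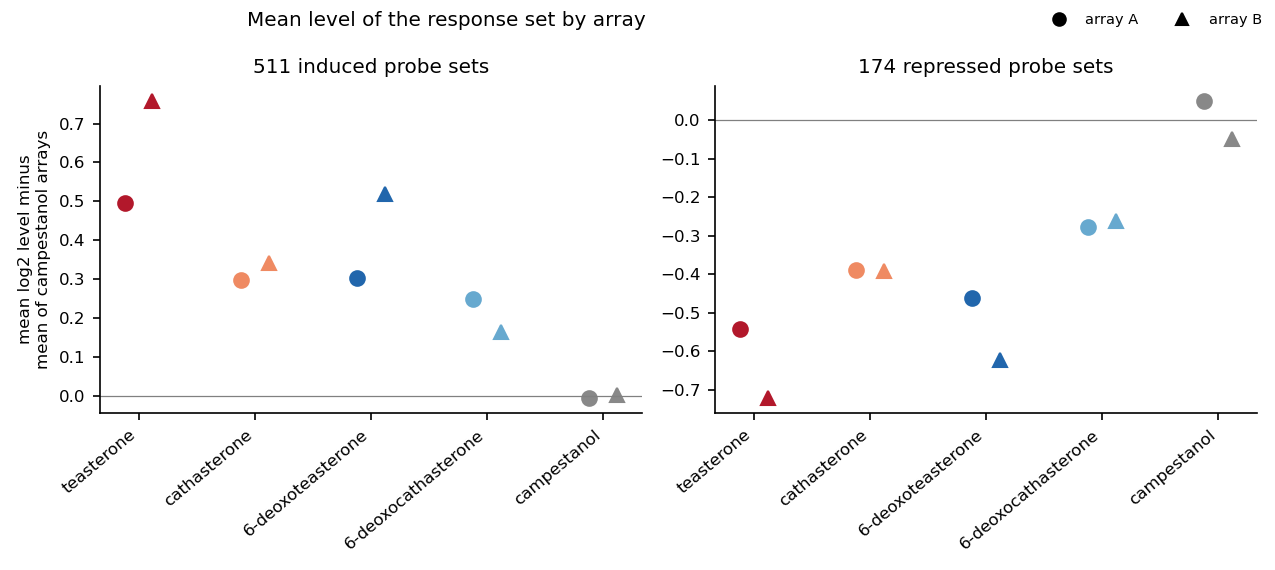
Mean log2 level of the 511 induced (left) and 174 repressed (right) probe sets on each array, minus the mean of the campestanol arrays (circle, letter A; triangle, letter B). Teasterone arrays stand above cathasterone and 6-deoxoteasterone above 6-deoxocathasterone on the left, and below them on the right, with larger gaps for letter B.

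The differences were larger between B arrays than between A arrays. For the induced set the median was 0.38 for teasterone B minus cathasterone B and 0.19 for the A arrays, and in the 6-deoxo branch 0.31 for B and 0.018 for A, where 51.7% of the induced probe sets were positive. For the repressed set the medians were -0.29 (B) and -0.10 (A) in the 6-oxo branch and -0.28 (B) and -0.21 (A) in the 6-deoxo branch. Over all tested probe sets the medians were 0.030 (B) and -0.072 (A) in the 6-oxo branch and -0.014 (B) and -0.048 (A) in the 6-deoxo branch. The difference between compounds over all probe sets thus also varied with the letter. Among all tested, 44.96% were positive for 6-deoxoteasterone A minus 6-deoxocathasterone A. The summed intensity of the leaf photosynthesis markers also varied with the letter and the compound. On A arrays it was 11141 with teasterone against 10615 with cathasterone, and 10676 with 6-deoxoteasterone against 11379 with 6-deoxocathasterone. On B arrays it was 7225 with teasterone against 8118 with cathasterone, and 7826 with 6-deoxoteasterone against 9780 with 6-deoxocathasterone, so the B arrays were lower in every group. The sum of the 3 root markers was lower on the B array as well, with 1492 (B) and 2542 (A) with teasterone against 1653 (B) and 2404 (A) with cathasterone, and 1821 (B) and 2143 (A) with 6-deoxoteasterone against 2192 (B) and 2578 (A) with 6-deoxocathasterone. Of the 8 leaf markers 0 passed the test and 7 had a negative difference (median -0.16). Among all tested 55.8% were negative, with a median of -0.024. Of the 3 root markers 0 passed and 2 had a positive difference (median 0.043). The part of these markers in the results was not tested. In whole seedlings, fewer cells of a type and less RNA per cell cannot be told apart.

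Set against the same pair of mock arrays, each compound had its own count of changes. Teasterone changed 184 probe sets (1.05%), 152 of them higher (0.863%) and 32 lower (0.182%), and cathasterone 20 (0.114%), 15 higher (0.0852%) and 5 lower (0.0284%). 6-Deoxoteasterone changed 79 (0.449%), 45 higher (0.256%) and 34 lower (0.193%), and 6-deoxocathasterone 6 (0.0341%), 2 higher (0.0114%) and 4 lower (0.0227%). Within the induced set, teasterone raised 142 of the 511 and cathasterone 15, and 6-deoxoteasterone raised 43 and 6-deoxocathasterone 2. All these comparisons, and the choice of the set, share the mock arrays, so the counts stand as descriptions; the direct comparison of the compounds is the one above.

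Genes for remodelling of the cell wall were followed by family among probe sets that name 1 gene, and CSLC04 alone of these passed. The 7 called probe sets that named no gene or several could not be placed in a family. The XTH family encodes enzymes that cut and rejoin xyloglucan. Of its 8 members measured under a gene name 0 passed, the median difference was 0.38, and 6 were positive. The highest 4 values were those of the members that brassinolide and castasterone induced. XTH19 had 186 and 437 with teasterone and 173 and 281 with 6-deoxoteasterone, against 168 and 193 with cathasterone and 96.2 and 160 with 6-deoxocathasterone. Its arrays overlapped, but within each branch and letter it was higher with the hydroxylated compound, with a difference of 0.73 (95% interval 0.35 to 1.11; adjusted p = 0.209). XTH18, XTH33 and XTH16 differed by 0.78, 0.72 and 0.57, while EXGT-A3, XTH20, XTH26 and XTH32, which were not in the induced set, differed by 0.20, 0.0014, -0.027 and -0.0059.

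Expansins loosen the wall without cutting its polymers. Of 15 members measured under a gene name 0 passed, and the median difference was 0.11, with 11 positive. EXLA1, an expansin-like gene, had 135 and 273 with teasterone and 97.0 and 165 with 6-deoxoteasterone, against 79.2 and 96.6 with cathasterone and 73.3 and 61.6 with 6-deoxocathasterone. The hydroxylated arrays were all above the precursor arrays, if barely, and the difference was 0.98 (95% interval 0.34 to 1.62; adjusted p = 0.454). EXLA2 differed by 0.85 (95% interval 0.44 to 1.25; adjusted p = 0.136).

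EXPA8 showed no such separation, although it was in the induced set, with 225 and 243 with brassinolide against 60.4 and 51.0 with mock. It had 154 and 150 with teasterone and 81.4 and 119 with 6-deoxoteasterone, against 132 and 116 with cathasterone and 134 and 79.8 with 6-deoxocathasterone. The groups overlapped, and the difference was 0.11 (95% interval -0.18 to 0.40).

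**Figure D5:**
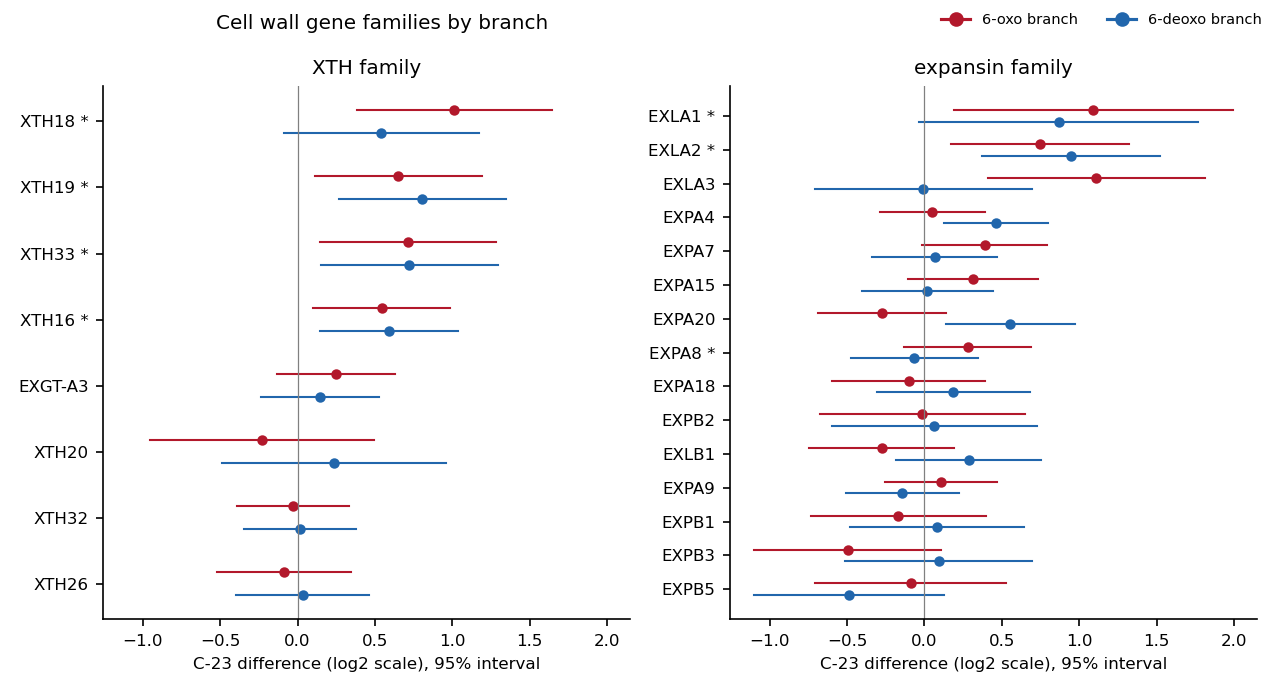
C-23 difference (log2 scale) with its 95% interval for XTH (left) and expansin (right) genes measured under a gene name, in the 6-oxo (red) and the 6-deoxo branch (blue). An asterisk marks genes induced by brassinolide and castasterone. The 4 marked XTH genes lie above 0 in both branches, whereas the marked EXPA8 lies at 0.28 in the 6-oxo and at -0.07 in the 6-deoxo branch.

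Among the 4 genes measured of a list of pectin-modifying genes 0 passed and the median was 0.085. The list is incomplete: AT3G49220, the pectin methylesterase gene described above (0.49), was not on it. ATPMEPCRB, a pectin methylesterase gene, had 153 and 407 with teasterone and 145 and 262 with 6-deoxoteasterone, against 120 and 170 with cathasterone and 74.2 and 115 with 6-deoxocathasterone. It was higher with the hydroxylated compound within each branch and letter, with a difference of 0.91 (95% interval 0.47 to 1.35; adjusted p = 0.138). Of 10 genes of the cellulose synthase superfamily, CSLC04 passed and the median was 0.094. ATCSLC08, CSLC5, CSLC6 and CSLC12, other members of the CSLC group, differed by -0.27, 0.073, 0.12 and -0.059.

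Of a list of 21 genes drawn up as induced by brassinosteroids, 10 were measured under a gene name, and these had a median difference of 0.72. All 10 were positive, beside 44.2% of all tested, and 0 passed. In all 4 pairs of arrays 6 were positive, beside 4.28% of all tested. The list was drawn up with earlier results of these data known, and 8 of the 10 belong to the induced set described above, so these counts largely repeat that result. The list holds EXO, XTH and expansin genes already described, as well as ARL, an ARGOS-LIKE gene of organ size, and HAT2, a homeodomain-leucine zipper gene. These last ones were not in the induced set. ARL differed by 0.11 (95% interval -0.32 to 0.55) and HAT2 by 0.094 (95% interval -0.40 to 0.58). BIM1, whose product is a partner of the transcription factor BES1, differed by -0.21 (adjusted p = 0.812), with 46.2 and 65.3 with teasterone and 61.8 and 63.4 with 6-deoxoteasterone, against 64.9 and 70.4 with cathasterone and 72.2 and 66.5 with 6-deoxocathasterone.

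Among 20 genes that lead the brassinosteroid responses over the whole study, and so were chosen on these data, 16 had a positive and 4 a negative difference, with 0 calls. AT4G27280, which encodes a calcium-binding EF-hand protein, had 276 and 257 with teasterone and 275 and 232 with 6-deoxoteasterone, against 167 and 199 with cathasterone and 180 and 119 with 6-deoxocathasterone. Its arrays were cleanly separated and differed by 0.65 (95% interval 0.33 to 0.97; adjusted p = 0.146). AT3G50560, AT5G45670, AT5G24570, AT2G47440 and AT3G06770 had differences of 0.60, 0.54, 0.40, 0.36 and 0.35. AT5G45670, a GDSL-type lipase gene like AT1G29660, had 74.0 and 190 with teasterone and 67.5 and 147 with 6-deoxoteasterone, against 72.0 and 83.5 with cathasterone and 71.1 and 67.8 with 6-deoxocathasterone, so that the difference lay in the B arrays. On the negative side P1R1, AT2G03750 and AT5G57760 differed by -0.55, -0.44 and -0.44. AT5G57760 differed by -1.01 in the 6-deoxo and by 0.13 in the 6-oxo branch, and that contrast between the branches had an adjusted p of 0.53.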

How the data were processed

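The 26 arrays fall into 13 groups of 2. The authors deposited 1 linear intensity per probe set and array, made with MAS5 according to the submitters' processing notes, which give no version or parameters in the sources used here. The trimmed mean (2 to 98%) was 100.0 on every array, so no further normalization was applied. Of 22810 probe sets, 64 controls and those with a mean intensity under 10 over all arrays were left out, leaving 17606. Platform annotation, updated through a RefSeq gene table, named 1 gene for 9861 of them; the others are not named here. Brassinosteroid synthesis, inactivation and SAUR genes had none and are not analysed here.

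Values were taken as log2(value + 5) and fitted on all 26 arrays with limma 3.58.1 (R 4.3.3), with 1 coefficient per group, the array letter as a block and an intensity trend in eBayes (12 residual degrees of freedom). The pseudocount understates changes of dim probe sets. Contrasts were teasterone minus cathasterone, 6-deoxoteasterone minus 6-deoxocathasterone, their mean and their difference, each adjusted over all probe sets. The number of arrays limits precision.

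Named genes are those called in a direction for the average that name 1 gene with 1 sign in all 4 pairs of arrays, filled to 10 a direction by lowest p and given as values, those called in a branch, and members of the gene lists. The members compared and the lists were chosen with earlier results of these data known. Alternatives changed the block, the arrays fitted, the pseudocount, the filter, the scaling, the trend, the adjustment and each array in turn.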

Additional observations from a re-analysis of the deposited data

How the results depend on the processing

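The 9 calls for the average became 1 with no replicate block, 1 with no filter on low intensities, 1 in eBayes without the trend, 0 with only the 8 arrays fitted with the branch interaction and 0 with them fitted additively. With single arrays left out there were 1 to 11. In the 6-deoxo branch the 3 calls became 0 with no replicate block, 7 with only the 8 arrays, 1 with no filter and 1 when adjusted over both branches. Of the 7, only 2 were among the 3. With single arrays left out the probe sets called changed here too. In the 6-oxo branch there were 0 to 1 with single arrays left out. For the difference between branches there were 5 with only the 8 arrays, 1 without the trend, and 0 to 1 with single arrays left out. The cause of these moves was not tested.

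The median C-23 difference of the induced set stayed positive in each alternative run, and that of the repressed set negative. Not all of these runs could test the differences. Fitting only the compared arrays changed neither the differences nor the sets, so the medians stayed at 0.23 and -0.22. Changing the block, the trend or the filter left each difference as it was and only redrew the sets. The repressed median was -0.31 with no replicate block, where other probe sets formed the set. A minus B deviations correlated above 0.1 in 76 of 78 pairs of groups, with a median of 0.32 and a lowest value of -0.022, and from 0.083 to 0.37 among the 4 compared groups, so the letters are a shared number and not an established pairing. Sign changed for EXPA8 (-0.079 without 6-deoxoteasterone B and -0.040 without 6-deoxocathasterone B; single arrays left out, up to 0.29), ARL (-0.21 without 6-deoxoteasterone A and -0.042 without 6-deoxocathasterone A; up to 0.44) and HAT2 (-0.016 without teasterone B, -0.024 without 6-deoxoteasterone B and -0.0075 without 6-deoxocathasterone B; up to 0.21), none of which passed. Of the other comparisons of single probe sets with an alternative, 733 stayed on their side of the threshold. Another 101 fell behind it and 18 passed it. Only a called probe set could fall behind, and most of the 733 were uncalled ones that stayed uncalled. The pooled counts therefore do not show that the calls were stable. Of the probe sets called for the average, 256598_at kept its call in 16 of 18 alternatives. Each of the others kept it in only 4 to 7 of 17 or 18. The 6-deoxo call of BRH1 was kept in 13 of 17.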

Other observations

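No member of the families below that was measured under a gene name passed the test. Of the 9 called probe sets, 7 named no gene or several and could not be placed in a family. Of 10 Aux/IAA and GH3 genes, which respond to auxin, 0 passed, and the median C-23 difference was -0.086, with a range from -0.18 to 0.28. Of 35 UDP-glycosyltransferase genes, 15 cytochrome P450 genes, 11 glutathione transferase genes, 7 tubulin genes, 6 WRKY transcription factor genes and 5 histone genes, 0 passed, with medians of 0.068, 0.052, -0.061, -0.021, 0.053 and 0.10. Single glycosyltransferase genes ranged from -0.54 for UGT71B5 to 0.77 for UGT72E3. Of 6 abscisic acid and cold genes 0 passed, with a median of -0.00049, a range from -0.70 to 0.41, and 3 positive. The lowest of them, COR15B, a cold-induced gene of chloroplast protection, had 5.12 and 3.25 with teasterone against 21.2 and 14.97 with cathasterone. It had 12.03 and 13.2 with 6-deoxoteasterone against 11.8 and 15.4 with 6-deoxocathasterone. These are dim values, without overlap in the 6-oxo branch, and the average difference was -0.70 (adjusted p = 0.441). SPCH, which encodes the transcription factor that starts the stomatal lineage, differed by 0.54 (adjusted p = 0.719). It was higher in all 4 pairs of arrays, as were 4.28% of all tested. Intensities were again low, with 23.5 and 16.1 with teasterone and 35.1 and 18.7 with 6-deoxoteasterone, against 10.0 and 14.5 with cathasterone and 18.7 and 13.4 with 6-deoxocathasterone. SPCH was 1 of 2 guard cell and epidermis genes tested, and the other differed by -0.060.

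RCA, the gene of Rubisco activase, differed between the letters, more in the 6-oxo branch. It read 858 and 22.7 with teasterone against 733 and 181 with cathasterone, and 823 and 500 with 6-deoxoteasterone against 695 and 460 with 6-deoxocathasterone. Its average difference was -0.54 (95% interval -2.47 to 1.39).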
